A study of Mus musculus with 4 samples.

Results

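The comparison set 1 library of Smchd1 MD1/MD1 epiblast stem cells against 1 library of Smchd1 +/+ cells, both carrying Xist1lox/+, and made up 2 of the 4 samples of the series. Epiblast stem cells (EpiSCs) are pluripotent cells in the primed state, here female and labelled as embryonic day 6.5. The strain label crosses C57BL6/J with an F1 hybrid of JF1 and C57BL6/J. The control library carried the Xist1lox mutation as well, so every difference described here was measured on that background. MD1 is the MommeD1 allele of Smchd1, and Xist1lox is by its name a loxP allele after recombination. What Xist1lox removes, and whether a line was 1 clone or a pool, was not given in the sources used here. With 1 library for each genotype there was no replicate check, and fewer cells of a type cannot be told apart from less RNA per cell in such bulk samples.

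In female mammals 1 X chromosome is silenced in early development, after the long noncoding RNA Xist has coated it from the chromosome that transcribes it. SmcHD1, the product of Smchd1, is a noncanonical SMC protein that is recruited to the inactive X and is known for keeping part of its genes silent and for the methylation of their CpG island promoters. Genes that are transcribed from the inactive X in normal cells are called escape genes. In a cross of strains, sequence variants tell maternal from paternal reads, and the paternal share of a gene is the percentage of its allele-assigned reads that carry the paternal allele.

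The +/+ library held 7822217 allele-assigned reads and the MD1/MD1 library held 7301034. At least 20 such reads in both libraries were required for a share to be compared, which left 10270 genes, 353 of them X-linked. Expression was compared as FPKM, fragments per length of transcript scaled to the library, for the 11378 genes with a mean of at least 1 FPKM, 381 of them X-linked. Intervals are exact Clopper-Pearson intervals at 95%. Two-sided Fisher's exact tests were run on the reads of each gene with Benjamini-Hochberg adjustment over all 10270 genes. Both cover counting error only and compare these libraries, not the conditions. The words higher and lower of a share below mean an adjusted p under 0.05 in this test unless only values are given.

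The genotype labels were first set against the reads. Smchd1 (mm9, chromosome 17, 71693834 to 71824683) had 20.9 FPKM in +/+ and 5.98 FPKM in MD1/MD1, a log2 ratio of -1.65 on the log2(FPKM + 1) scale. Its reads were 52.4% paternal in +/+ (1458 reads) and 0.532% in MD1/MD1 (376 reads). FPKM of Smchd1 from reads assigned to the maternal allele was 9.93 in +/+ and 5.94 in MD1/MD1. The MD1/MD1 value can include the paternal copy, because most genes on both sides of Smchd1 also read as maternal in that library. Xist (X chromosome, 100655712 to 100678572) had 10.5 FPKM in +/+ and 28.9 in MD1/MD1, a log2 ratio of 1.38. Its reads were 99.9% paternal in +/+ (2742 reads) and 99.8% in MD1/MD1 (7157 reads). Xist was thus read from the paternal X in both libraries, and a paternal share of another X-linked gene measures its output from the Xist-transcribing chromosome.

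The cell type label was checked against markers. Of 18 primed pluripotency genes all were measured, with a median log2 ratio of 0.062 and a summed level of 2774 FPKM in +/+ and 2792 FPKM in MD1/MD1. Pou5f1 had 984 and 873 FPKM, Sox2 91.4 and 65.9, Nanog 90.04 and 94.2, and Fgf5 26.0 and 25.6. The naive-state markers Zfp42 (0.463 and 0.951 FPKM) and Esrrb (0.348 and 0.167) were under 1 FPKM in both libraries, while Klf2 (50.6 and 39.8) and Klf4 (34.8 and 33.0) were not. RNA of other cell types was present at a similar level in both. Fibroblast markers summed to 130 FPKM in +/+ and 131 in MD1/MD1 over 15 genes, and 13 of them reached the level needed for comparison. Macrophage markers summed to 373 and 337 FPKM over 16 genes, of which Lyz2 made up 274 and 247. Endothelial markers summed to 0.293 and 0.415 FPKM, and Emcn and Tie1 were listed at 0 in both libraries. The part of the fibroblast and macrophage RNA in the results below was not tested.

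The promoters of 5 X-linked genes are printed first, to show the CpG content of genes whose paternal share rose or stayed low. Ogt, Idh3g and Shroom2 were the first 3 of the named rises with a RefSeq promoter at hand, and Msn and Prps2 were among the 8 genes with the most reads that stayed under 1% paternal in both libraries. Each sequence is the 250 bases before the start of transcription, 5′ to 3′ on the strand of the gene, from RefSeq in the build GRCm38.p6. Capitals mark CpG. They lie at chrX:101639801-101640050 (Ogt, plus strand), chrX:73786898-73787147 (Idh3g, minus), chrX:152769487-152769736 (Shroom2, minus), chrX:96095795-96096044 (Msn, plus) and chrX:167382750-167382999 (Prps2, minus).
Ogt: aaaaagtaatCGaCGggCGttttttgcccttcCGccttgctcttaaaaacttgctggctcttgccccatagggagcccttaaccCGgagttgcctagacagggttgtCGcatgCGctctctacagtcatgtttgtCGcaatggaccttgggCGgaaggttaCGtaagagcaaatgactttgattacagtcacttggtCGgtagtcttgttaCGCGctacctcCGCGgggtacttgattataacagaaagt
Idh3g: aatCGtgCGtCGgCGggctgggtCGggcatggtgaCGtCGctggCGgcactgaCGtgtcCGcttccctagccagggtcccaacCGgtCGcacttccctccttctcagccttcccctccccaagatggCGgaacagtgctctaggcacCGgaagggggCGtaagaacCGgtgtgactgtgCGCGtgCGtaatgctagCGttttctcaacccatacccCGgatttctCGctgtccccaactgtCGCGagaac
Shroom2: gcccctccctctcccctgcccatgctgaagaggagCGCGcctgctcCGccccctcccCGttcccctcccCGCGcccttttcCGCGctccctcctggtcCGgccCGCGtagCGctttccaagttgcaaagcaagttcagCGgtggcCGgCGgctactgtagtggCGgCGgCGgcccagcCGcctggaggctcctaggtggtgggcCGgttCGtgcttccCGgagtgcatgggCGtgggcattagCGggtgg
Msn: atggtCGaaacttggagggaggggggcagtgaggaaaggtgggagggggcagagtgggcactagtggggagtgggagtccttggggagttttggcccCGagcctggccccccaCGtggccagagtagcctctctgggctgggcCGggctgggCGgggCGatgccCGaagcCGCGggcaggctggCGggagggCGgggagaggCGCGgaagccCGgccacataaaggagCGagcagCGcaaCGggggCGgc
Prps2: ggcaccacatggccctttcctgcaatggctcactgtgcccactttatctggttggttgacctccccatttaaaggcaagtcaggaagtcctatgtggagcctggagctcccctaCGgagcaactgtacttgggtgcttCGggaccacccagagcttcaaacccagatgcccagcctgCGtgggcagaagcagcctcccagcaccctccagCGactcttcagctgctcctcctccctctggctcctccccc

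These 250 bases held 15 CpG in Ogt, 24 in Idh3g, 24 in Shroom2, 18 in Msn and 4 in Prps2. Msn is therefore an example of a CpG-rich promoter whose gene stayed silent on the paternal X.

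X-linked paternal output was higher in MD1/MD1. Without Xist, Ftx and Jpx, which belong to the X inactivation centre, the reads of 350 X-linked genes were 3.43% paternal in +/+ (3.34 to 3.52) and 9.38% in MD1/MD1 (9.23 to 9.52). The difference was 5.94 points (5.77 to 6.12). FPKM attributed to paternal alleles and summed over the genes measured was 224 in +/+ and 780 in MD1/MD1, a ratio of 3.49. FPKM attributed to maternal alleles was 8076 and 7952, a ratio of 0.985. With equal weight for each gene, the mean share was 2.79% in +/+ and 7.04% in MD1/MD1. The paternal X gained reads while the summed maternal output was nearly level.

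Of the 353 X-linked genes 135 had a higher paternal share in MD1/MD1 (38.2%) and 14 had a lower one (3.97%). Autosomal genes in regions where both libraries carried both parental alleles gave the background of this test, 217 of 5649 higher (3.84%) and 271 lower (4.8%), or 8.64% in either direction. The rates are not like for like, since the median autosomal share was 48.7% in +/+ and the median X-linked one 0.163%. From a low share the same rise in points is easier to call, and counting error in points is smaller. Whether called or not, the share was larger in MD1/MD1 for 238 X-linked genes, smaller for 76 and equal for 39. The median gene was at 0.163% in +/+ and 3.47% in MD1/MD1. At 5 points or more, 128 genes were above their +/+ value and 18 were below it, while the same rule gave 937 above and 1019 below among the 5649 autosomal genes.

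**Figure D1:**
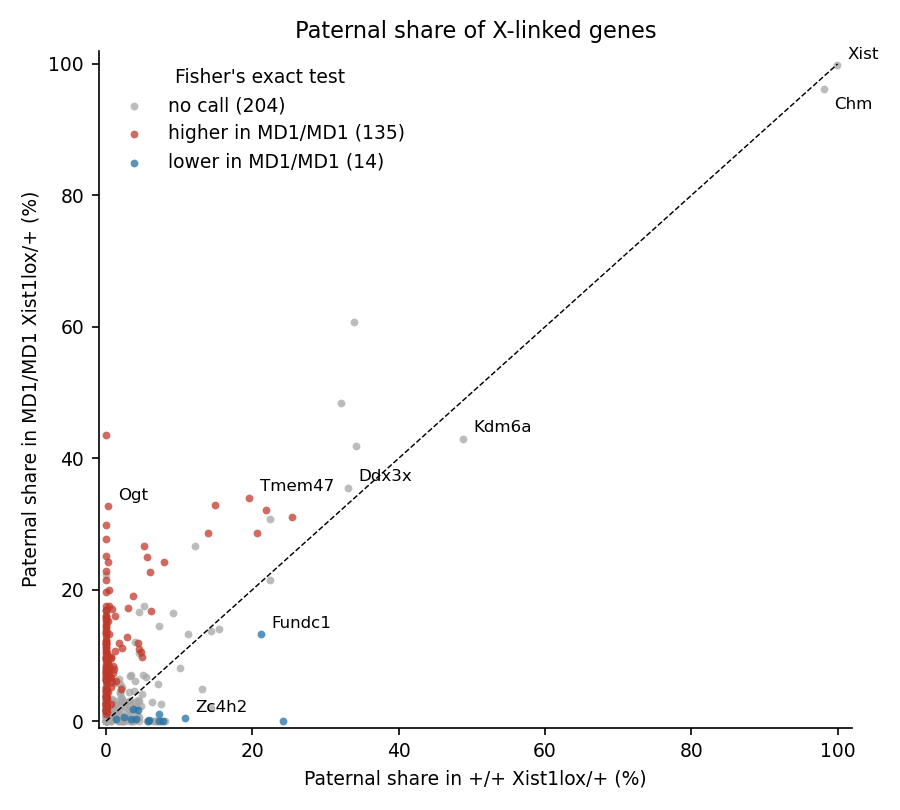
Paternal share of the 353 X-linked genes in the +/+ library (x axis, percent) and the MD1/MD1 library (y axis, percent), 1 point for each gene, with the dashed line at equal shares. The 135 genes called higher lie above the line, 6 of them at 10% or more in +/+, and the 14 called lower lie below it.

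In +/+ 163 of the 353 genes had no paternal read, against 65 in MD1/MD1. Of those 163 genes 126 had at least 1 paternal read in MD1/MD1, 74 were called higher and 38 reached 10%. Their pooled share in MD1/MD1 was 6.75% (6.52 to 6.99). A share of 10% or more is used here as the rule for expression from the paternal allele. By this rule 25 genes were expressed from the paternal X in +/+ and 88 in MD1/MD1. A total of 68 genes gained this state (19.3%) and 5 lost it. Of the 68, 58 were also called higher by the test. The rule cuts a continuous range: C330007P06Rik (10% in MD1/MD1), Pcsk1n (10.3%) and Tceanc (10.3%) lay just inside, and Mtcp1 (9.80%), Med12 (9.80%) and Cul4b (9.78%) just outside. Another 71 genes were called higher and stayed under 10% in MD1/MD1.

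Most gains were partial. In MD1/MD1 110 genes lay between 1% and 5%, 63 between 5% and 10%, 58 between 10% and 20%, 16 between 20% and 30% and 11 between 30% and 50%. Only 3 of the 353 were above 50%, Xist and 2 genes chosen here after their values were seen. Chm, an escort protein of Rab prenylation, was 98.1% paternal in +/+ (159 reads) and 96.3% in MD1/MD1 (160 reads), and thus read almost only from the paternal X in both. In the other pair of the series, with XistdeltaA/+, Chm was 4.05% paternal in +/+ and 5.85% in MD1/MD1. Klhl4 was 33.9% paternal of 56 reads and 60.7% of 28 reads, and this difference was not called.

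The number of calls followed the depth. Of 107 genes with 20 to 100 reads in their shallower library, 13 were called higher (12.1%). The share of calls was 43.0% for 165 genes with 100 to 500 reads and 63.0% for 81 genes with 500 or more. The 10% rule depended less on depth and was passed anew by 15.9%, 20% and 22.2% of the genes in these 3 classes. Genes without a call at low depth therefore cannot be counted as unchanged.

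Most of the 20 largest rises started near 0 in +/+. Ogt, the transferase that adds O-linked N-acetylglucosamine (X chromosome, 98835390 to 98879690), had 3 paternal reads of 1182 in +/+ (0.254%) and 489 of 1496 in MD1/MD1 (32.7%, interval 30.3 to 35.1). Ercc6l, a DNA translocase of the anaphase bridges (99338159 to 99352430), had 0 of 602, which allows up to 0.498%, and 27.7% of 845 reads. Idh3g, the gamma subunit of a mitochondrial isocitrate dehydrogenase (71024302 to 71032236), had 0 of 991 in +/+, which allows up to 0.303%, and 25.2% of 1314. In all of these the 95% intervals of both libraries were far apart. Shroom2, an actin-binding regulator of cell shape (149044052 to 149204029), rose from 0.297% of 1010 reads to 24.2% of 1370. The adjusted p from Fisher's exact test was 2.43e-135 for Ogt, 2.10e-61 for Ercc6l, 1.73e-89 for Idh3g and 8.27e-82 for Shroom2.

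Zfx, a zinc finger activator, had 0 paternal reads of 53 and 22.8% of 79, with a wide interval of 14.1 to 33.6. Taf1, the largest subunit of the TFIID complex, went from 0% of 165 reads to 19.7% of 183. Zrsr2, which recognises splice sites of minor introns, went from 0% of 432 to 17.5% of 537. None of these 3 genes had a paternal read in +/+. Naa10, the catalytic subunit of an N-terminal acetyltransferase, went from 0% of 405 to 15.7% of 453.

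Uba1, the main ubiquitin-activating enzyme, was 0.763% paternal of 2884 reads in +/+ and 17.1% of 3001 in MD1/MD1. Otud5, a deubiquitinase, was at 0.434% of 692 and 17.5% of 781. Siah1b, a ubiquitin ligase, had 0 of 262 paternal reads and 16.1% of 342. Ikbkg, the regulatory subunit of the kinase complex that activates NF-kappaB, was at 0.350% of 286 and 20% of 285. The 4 genes thus reached similar shares from a start under 1%.

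Emd, which encodes emerin of the inner nuclear membrane, had 0 of 289 paternal reads and 16.01% of 331. Mmgt1, a subunit of the membrane protein complex of the endoplasmic reticulum, had 0 of 377 and 16.9% of 478. Ndufa1, a subunit of respiratory complex I, had 0 of 507 and 16.9% of 438. Chic1, a neighbour of Xist, had 0 of 124 and 21.4% of 168. A further pair of membrane genes started higher. Slc7a3, a transporter of cationic amino acids, was 7.92% paternal of 2385 reads and 24.2% of 2972, and Yipf6, a Golgi protein, 5.95% of 420 and 22.7% of 488. The noncoding RNAs Kantr and Ftx were at 5.16% of 155 and 14.9% of 114 in +/+, and at 26.6% of 124 and 32.9% of 149 in MD1/MD1.

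**Figure D2:**
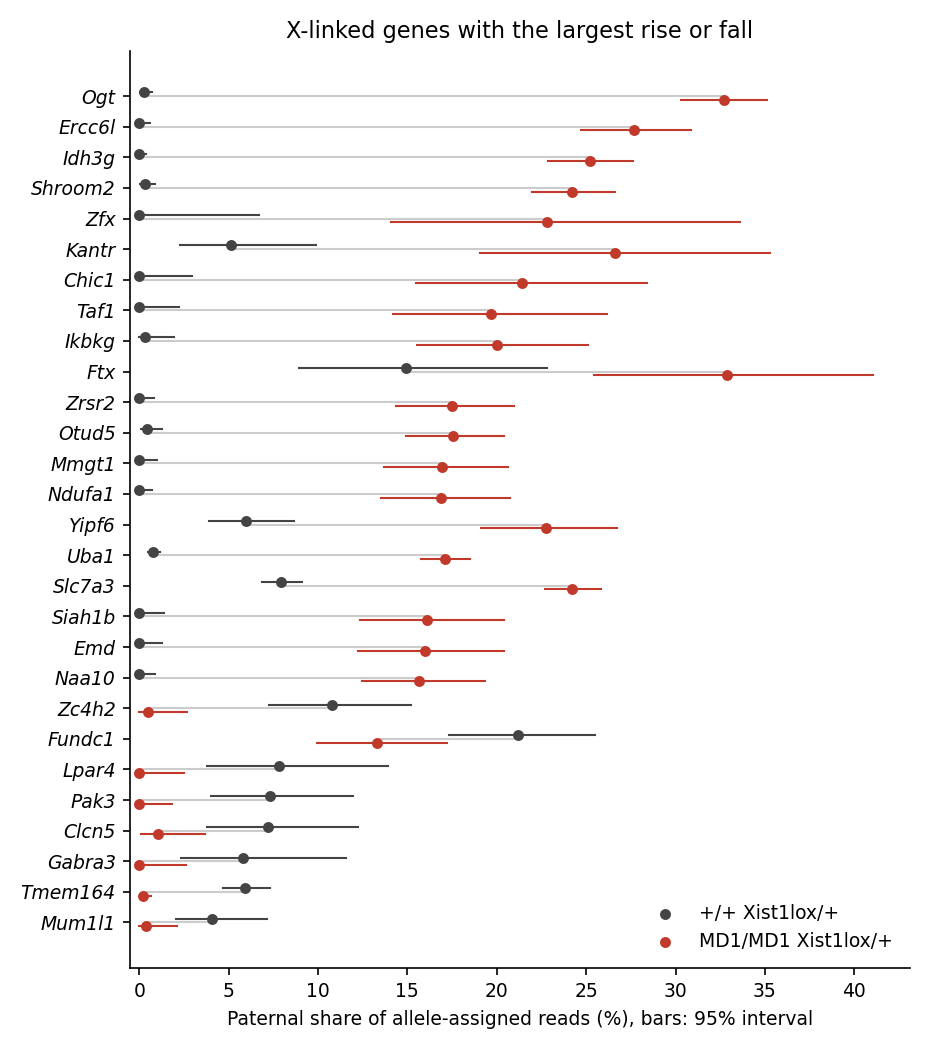
Paternal share (x axis, percent of allele-assigned reads) of called X-linked genes with at least 50 reads in both libraries, the 20 that rose most and the 8 that fell most; black points are +/+, red points MD1/MD1, and bars 95% intervals. Ogt reached 32.7% from 0.254%, and all 20 rising genes were under 15% in +/+.

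A share can rise because the paternal allele gives more or because the maternal one gives less, so allelic FPKM were compared. Ogt had 24.1 maternal FPKM in +/+ and 22.9 in MD1/MD1, while its paternal FPKM went from 0.0613 to 11.1. Idh3g had 106 and 104 maternal FPKM, and 0 and 34.9 paternal FPKM. Slc7a3 had 269 and 267 maternal FPKM, and 23.1 and 85.5 paternal FPKM. For these 3 genes the maternal values were close and the paternal values were not. Naa10 had a maternal level of 144 FPKM in both libraries and a paternal one of 0 and 26.8 FPKM. Ndufa1 differed from this pattern, with 108 maternal FPKM in +/+ and 90.2 in MD1/MD1, beside 0 and 18.3 paternal FPKM, so that its total was level at 108 and 109 FPKM.

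Over the 68 genes that passed 10% anew, the pooled share was 1.62% in +/+ and 17.0% in MD1/MD1. Of these, 64 reached the level needed for comparing expression, and total FPKM was larger in MD1/MD1 for 55. It was larger for 64.6% of all X-linked genes measured and for 50.7% of all genes. The median log2 ratio of the 64 genes was 0.22. If maternal output had been equal in both libraries, the shares alone would give a median of 0.22, and the median log2 ratio of the maternal FPKM was -0.0041. The summed paternal FPKM of the 68 genes was 41.0 in +/+ and 397 in MD1/MD1. These values are a description, because the 68 genes were chosen as high in MD1/MD1 and their paternal reads are part of the total FPKM. For 199 genes in between, at 1.22% and 4.24%, the median log2 ratio of total expression was 0.044. For the 61 genes under 1% in both libraries it was 0.085, with 39 of 54 above 0 and a median maternal log2 ratio of 0.082, so the classes did not follow the order of their shares.

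**Figure D3:**
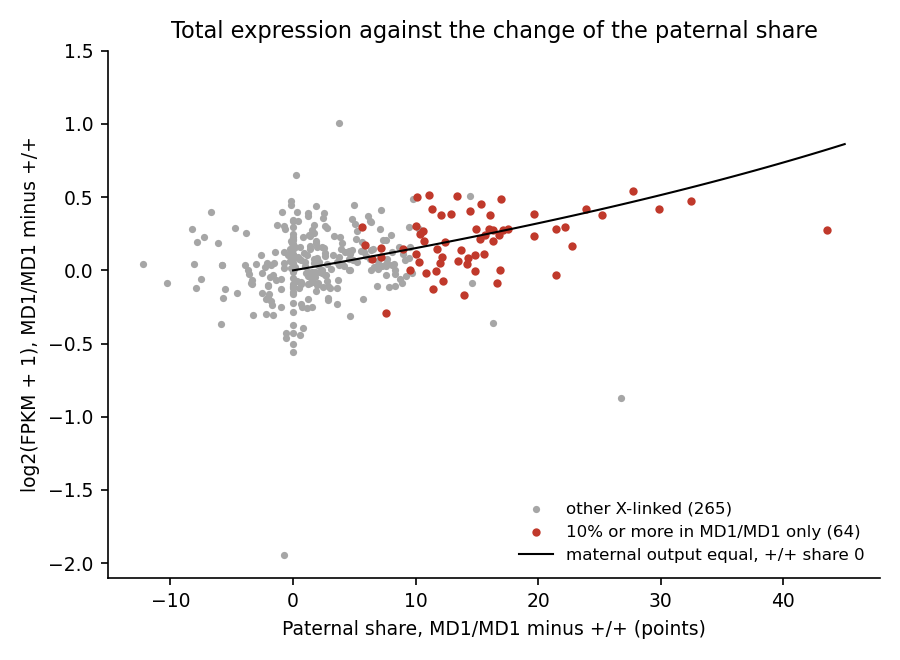
Difference of total expression (y axis, log2(FPKM + 1)) against the difference of the paternal share (x axis, percentage points) for 329 X-linked genes, MD1/MD1 minus +/+; red points are the 64 genes at 10% or more in MD1/MD1 only, and the line is what equal maternal output and a +/+ share of 0 would give. Rpl10 lies outside the axis, and the red points scatter around the line.

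At the other end, 61 genes stayed under 1% in both libraries, at 0.182% pooled in +/+ and 0.246% in MD1/MD1. The genes with the most reads among them were named after their values were seen. Msn, which encodes the membrane linker moesin (93291384 to 93363892), had 2 paternal reads of 1333 in +/+ and 2 of 1200 in MD1/MD1. Prps2, a phosphoribosyl pyrophosphate synthetase (163784265 to 163820631), had 4 of 1327 and 2 of 1614. Both genes were silent on the paternal X at a depth that would show a share of 1%. Atrx, a chromatin remodeller, had 1 of 719 and 0 of 717. Bgn, a proteoglycan of the extracellular matrix, had 0 of 875 and 1 of 873. Rbm3 had 0 of 2089 and 0 of 366, the latter allowing up to 0.820%, although its FPKM was 61.3 and 54.6.

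The 22 genes at 10% or more in +/+ outside the X inactivation centre were 24.9% paternal in +/+ and 29.6% in MD1/MD1, a difference of 4.69 points. The median log2 ratio of total expression was 0.039 over the 21 of them that were measured. Among the escape genes listed from background knowledge, 9 had enough reads, 3 were called higher and none lower, a share near the 38.2% of all X-linked genes. Ddx3x, an RNA helicase, was at 33.1% of 4236 reads and 35.5% of 3585, and was not called. Kdm6a, a histone demethylase, was at 48.8% of 371 and 43.0% of 356, also without a call. Their differences were 2.49 points and -5.81 points, and the intervals of the 2 libraries overlapped for each gene. Kdm5c, another histone demethylase, was called higher, from 25.4% of 1474 to 31.0% of 1691. Utp14a went from 1.19% of 1010 to 16% of 944, and the predicted gene 5530601H04Rik from 13.99% of 143 to 28.6% of 119. Pbdc1 (22.4% and 30.7%) and Mid1 (14.3% and 13.7%) were not called, and Eif2s3x had no allele-assigned reads.

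A total of 6 genes called higher were already at 10% or more in +/+, namely Kdm5c, 5530601H04Rik, Ftx, Tmem47, Kif4 and Snx12, the last 3 named after their values were seen. Tmem47, a membrane protein of cell junctions, was 19.6% paternal of 2438 reads and 34.0% of 3007. Kif4, a mitotic kinesin, was at 21.9% of 904 and 32.2% of 1076, and Snx12, a sorting nexin, at 20.6% of 548 and 28.7% of 474. These 3 genes had much lower shares in the +/+ library with XistdeltaA/+, at 5.58%, 0% and 0.416%, so the start of their rise differed between the +/+ libraries.

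The share of 14 genes was lower in MD1/MD1 (3.97%), beside 4.8% in the autosomal background. These rates cannot be compared directly, since the 163 X-linked genes without a paternal read in +/+ could not fall. The values of the 14 genes are therefore given as a description. Fundc1, a receptor for the autophagy of mitochondria (17133695 to 17149423), was 21.2% paternal of 406 reads in +/+ and 13.3% of 361 in MD1/MD1. Zc4h2, a zinc finger gene, went from 10.8% of 260 to 0.490% of 204. Tmem164 went from 5.90% of 1355 reads to 0.191% of 1049, with an adjusted p of 2.36e-17 from Fisher's exact test. Lpar4 and Pak3, a receptor for lysophosphatidic acid and a p21-activated kinase, fell from 7.81% of 128 and 7.29% of 192 to 0 of 147 and 0 of 200. Gabra3, a subunit of the GABA-A receptor, fell from 5.79% of 121 to 0 of 140. Clcn5, a chloride-proton exchanger, went from 7.19% to 1.03%, and Mum1l1 from 4.04% to 0.383%. The other 6, outside the rule for named genes, were Sept6, Firre, Pcyt1b, Fndc3c1, Armcx2 and Col4a6.

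Calls per interval of 10 Mb ranged widely, with none from 80 to 90 Mb (3 genes) or from 110 to 130 Mb (2 and 1 genes). The interval from 70 to 80 Mb held 25 called higher of 45 genes and none lower, and its pooled share went from 2.16% to 11.9%. From 30 to 40 Mb it was 12 of 20, with 0.489% and 7.53%. From 40 to 50 Mb it was 2 of 20, with 1.99% and 3.05%. The interval from 130 to 140 Mb held 15 called higher and 5 called lower of 50 genes, the most lower calls of any interval of 10 Mb. Across 350 genes the difference in points had a Spearman correlation of 0.073 with the distance from Xist and of 0.18 with the FPKM in +/+, both described without a test, since the genes share 2 libraries and their depth.

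Promoters were counted for CpG over 300 bases, 250 before and 50 after the start. RefSeq promoters were matched for 310 of the 353 X-linked genes and the letters CG, which read the same on both strands, were counted. The median was 17 for these X-linked genes and 7 for all 27025 promoters of the reference table. At least 10 CpG were held by 76.5% of the X-linked promoters and by 44.0% of all promoters. The X-linked set was limited to genes with at least 20 reads in both libraries and the reference table was not. The contrast therefore cannot tell the X from this filter. Of the genes that passed 10% anew, 60 of 68 matched, with a median of 18, and 91.7% held at least 10. For the genes under 1% in both libraries 53 of 61 matched, with a median of 14, and 67.9% held at least 10. The promoters of Ogt, Idh3g and Shroom2 printed above held 20, 27 and 29 CpG over the 300 bases, against 21 for Msn and 7 for Prps2. Across 307 genes the difference in points had a Spearman correlation of 0.29 with the CpG count, again a description.

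Total expression of the X differed little. Over 381 X-linked genes the median log2 ratio was 0.065, and 246 (64.6%) were above 0. Of all 11378 genes 50.7% were above 0. At 1.2-fold or more, 74 X-linked genes were above and 27 below. That count was not made for the autosomes, so it has no background here. The quartiles of the log2 ratio were -0.076 and 0.21 for X-linked genes, and -0.12 and 0.12 for all 11378 genes. At 2-fold, 4 were above (1.05%) and 1 below (0.262%), against 49 (0.431%) and 44 (0.387%) of all 11378 genes. Besides Xist, the 3 genes above were Rpl10 (4.12 FPKM in +/+ and 129 in MD1/MD1), Rpl36a (48.0 and 151) and Eda2r, a receptor of the tumour necrosis factor family (3.25 and 7.53). Eda2r had 10.1 FPKM in +/+ and 6.97 in MD1/MD1 in the pair with XistdeltaA/+. The ribosomal protein genes are uncertain, because pseudogene copies can share their reads. Rpl10 had 36 and 51 allele-assigned reads beside its FPKM difference. Trap1a was below, with 70.2 FPKM in +/+ and 17.5 in MD1/MD1, and was 3.14% and 2.44% paternal. In the pair with XistdeltaA/+ it had 36.7 and 9.47 FPKM.

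Autosomes needed a separate step, since the father was a hybrid and passed on recombined chromosomes. Where the paternal chromosome carries maternal-type alleles, all reads look maternal whatever the allele. Windows of 10 Mb were therefore classed by the shares of their genes. Of 257 windows 141 held both alleles in both libraries and 24 maternal-type alleles alone in both. Another 23 held both alleles in +/+ only and 42 in MD1/MD1 only, and 27 were not classed. Chromosomes 3, 4, 15 and 16 were matched throughout. On chromosome 10 the windows from 30000001 to 130000000 carried both alleles in MD1/MD1 only, and on chromosome 17 those from 10000001 to 70000000, in +/+ only. The window from 80000001 to 90000000 on chromosome 17 did so too. The window between them, which holds Smchd1, carried both alleles in +/+ and was mixed in MD1/MD1, with a median share of 0.415% over 26 genes.

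The unmatched windows show the size of this effect. They were classed by these same shares, so their large differences follow from the rule and are not a separate result. The pooled share was 48.8% in +/+ and 1.30% in MD1/MD1 over 1250 genes of windows with both alleles in +/+ only, and 1206 were called lower. It was 0.462% and 48.4% over 1646 genes of the opposite windows, and 1607 were called higher. In windows of maternal-type alleles in both libraries 851 genes were at 0.203% and 0.239%, with 4 higher and none lower. Over all 10270 genes compared 2130 were called higher (20.7%) and 1637 lower (15.9%), so most calls of the table lay in windows of these 2 kinds. Imprinted genes that are read from the paternal allele followed the window too: Mest went from 0% of 209 reads to 100% of 201, Snrpn with Snurf from 0% to 99.8%, Impact from 0% to 94.1%, and Peg3, in a window of the other kind, from 99.6% to 0%. The library with both alleles had each of these genes at 94.1% or more paternal. The difference between the libraries in such windows cannot tell the imprint from the haplotype.

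In windows with both alleles in both libraries the shares of 5649 genes were balanced. They pooled to 48.5% in +/+ and 48.1% in MD1/MD1, and the difference had a median of -0.21 points and an SD of 8.03 points across genes. X-linked genes had a median difference of 2.33 points and an SD of 7.35. Leaving out 122 genes whose neighbours did not carry both alleles, a step chosen after the values were seen, gave 211 higher (3.82%) and 238 lower (4.31%) of 5527. The autosomal background thus had slightly more falls than rises, while the X had 135 rises and 14 falls. Of the X-linked genes, the 163 without a paternal read in +/+ could not fall, and a rise from a low share is easier to call.

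**Figure D4:**
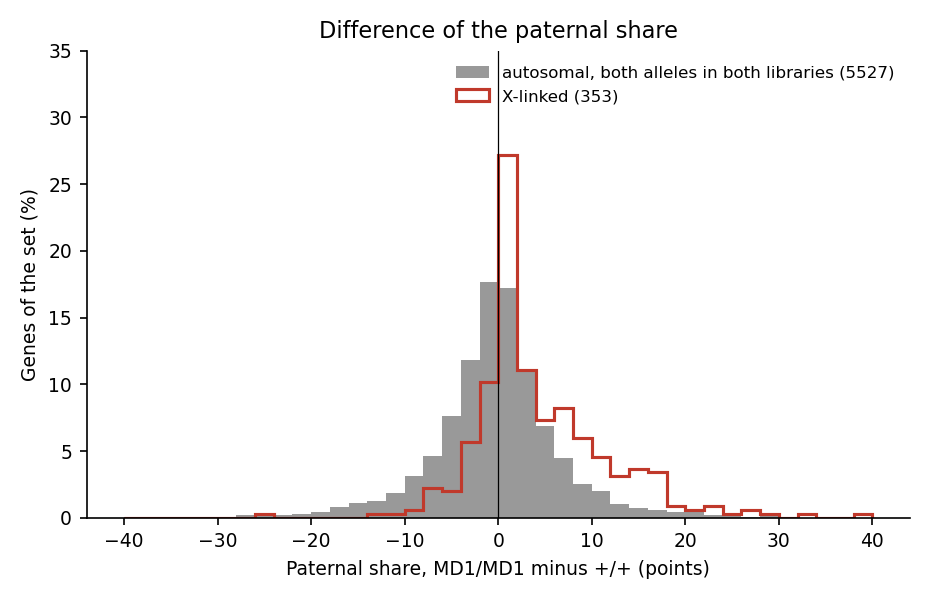
Distribution of the difference of the paternal share (x axis, MD1/MD1 minus +/+ in percentage points, values beyond 40 drawn at the edge; y axis, percent of the genes of each set) for 353 X-linked genes (red line) and 5527 autosomal genes whose window and neighbours carried both alleles in both libraries (grey). Genes with equal shares, 39 of the X-linked ones, fall in the bin right of 0. The autosomal genes lie around 0 and the X-linked ones extend to the right.

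The largest autosomal differences lay at changes of haplotype inside a window. The 6 largest falls, Incenp (59.8% to 0%), Eml3, Polr2g, Ubxn1, Tmem179b and Slc3a2, all lay between 8781372 and 9974023 on chromosome 19, where 26 called genes were all lower. Trim6 on chromosome 7 (0.345% to 48.7%) and Spag16 on chromosome 1 (0% to 47.7%) lay at such places as well. The other named rises had few reads. They were E030030I06Rik (38.7% of 137 and 74.2% of 62), Cyb5d2 (40.7% of 54 and 74.5% of 55), Pcsk2os1 (39.2% of 51 and 69.6% of 56) and Cenpk, a centromere protein (26.2% of 103 and 54.9% of 91).

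With the genes next to haplotype changes left out, further genes entered the 6 largest on each side. Prdx1, a peroxiredoxin, had 82.7% of 865 reads and 55.7% of 5068, although its FPKM was 1085 and 1015. Ptgr1, a prostaglandin reductase, went from 33.1% of 299 to 59.6% of 356, and Pgr, the progesterone receptor, from 22.99% of 87 to 51.1% of 92. Dram2 went from 58.2% of 67 to 18.9% of 53 and Crym from 78.8% of 80 to 49.5% of 99. S100a1 (70.2% to 46%), Frem2 (58.7% to 33.7%) and Plekho2 (47.9% to 23.7%) completed the list. These genes lay on 4 different chromosomes and none was on chromosome 17 or 19.

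Median total autosomal expression was nearly level in matched windows and in both kinds of unmatched windows. Over 670 genes outside these classes the median log2 ratio was 0.022, and 54.9% were above 0. Within the classes it was 0.0018 over 7101 genes of matched windows, -0.0054 over 1359 genes of windows with both alleles in +/+ only and -0.0059 over 1867 genes of the opposite windows. Matched windows held 15 genes at least 2-fold above (0.211%) and 18 below (0.253%), with an SD of the log2 ratios of 0.23. Unmatched windows held 26 above (0.806%) and 19 below (0.589%) of 3226 genes, with an SD of 0.38. Of those with both alleles in MD1/MD1 only, 20 were above and 4 below, and of those with both alleles in +/+ only, 6 were above and 15 below. Over all genes of these classes, past 2-fold or not, 48.7% of 1867 and 49.2% of 1359 were above 0. A comparison of total expression free of haplotype differences therefore rests on the matched windows.

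**Figure D5:**
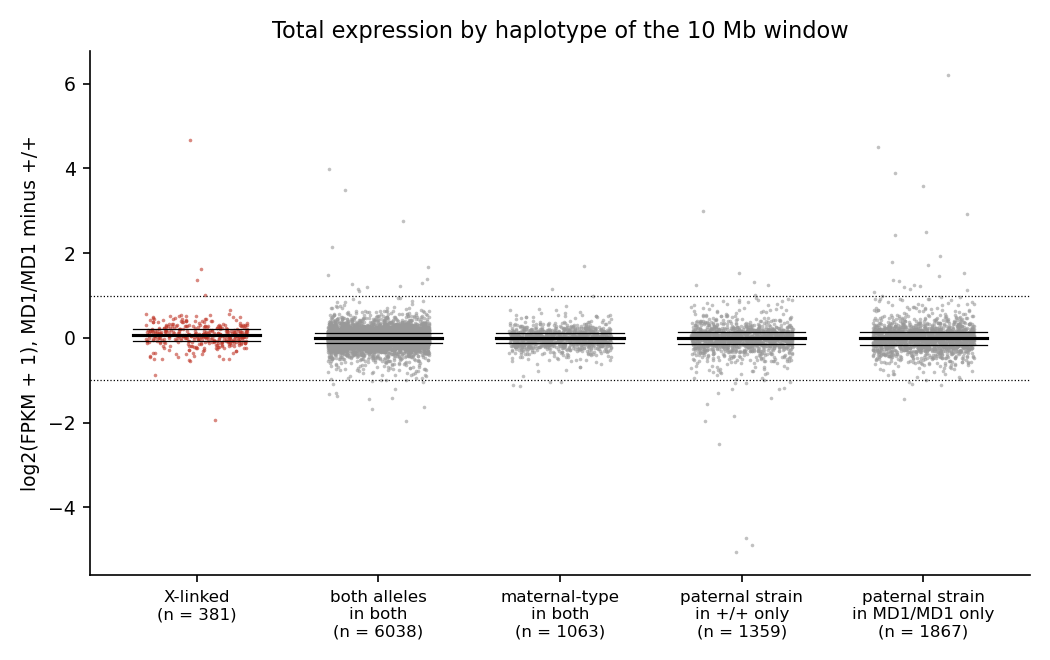
Log2 ratio of total expression (y axis, log2(FPKM + 1), MD1/MD1 minus +/+) for X-linked genes and 4 classes of autosomal windows, 1 point for each gene with a mean of at least 1 FPKM; thick lines are medians, thin lines quartiles and dotted lines 2-fold. The X-linked median is 0.065, and that of matched autosomal windows 0.0018.

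In matched windows Arc, an immediate early gene, stood at 1.88 FPKM in +/+ and 31.6 in MD1/MD1. Klhl22, an adaptor of a ubiquitin ligase, had 3.02 and 10.3, Cpped1, a phosphatase, 2.71 and 8.69, and Cdk5rap1, a mitochondrial tRNA-modifying enzyme, 2.71 and 8.06. In all 4 the +/+ library stood below both libraries of the pair with XistdeltaA/+, where Arc had 24.8 and 50.4 FPKM, Klhl22 14.02 and 12.7, Cpped1 11.8 and 8.65, and Cdk5rap1 5.74 and 6.0. The other 6 named entries above were Gm12504, Gm10767, Gm3020, Gm10406, Eif3j2 and the pair Pisd-ps1,Pisd-ps3, which are uncertain as predicted genes, pseudogenes or close copies.

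Among the falls of matched windows were imprinted growth genes. Plagl1, a zinc finger regulator read from the paternal allele, had 5.75 FPKM in +/+ and 0.723 in MD1/MD1, and was 99.5% paternal of 417 reads and 85.5% of 62. Igf2, the insulin-like growth factor, had 11.9 and 4.14 FPKM, and was 69.1% paternal of 375 reads and 50.3% of 147. Both genes were lower in level and in paternal share in this MD1/MD1 library. In the pair with XistdeltaA/+ the levels went the other way, from 1.53 to 1.79 FPKM for Plagl1 and from 6.79 to 35.7 for Igf2. Other falls were Krt7, a keratin (3.53 and 0.424 FPKM), Them4, a thioesterase (18.2 and 5.15), E030030I06Rik (7.57 and 2.16), the RNA component gene Rmrp (7.06 and 1.99), Sct, which encodes secretin (2.74 and 0.512), and G0s2, an inhibitor of fat hydrolysis (3.31 and 0.874). Mup6 (10.3 and 3.39) and Hist1h4d (7.85 and 3.04) belong to families of close copies and are uncertain.

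Among unmatched windows, genes with 1 allele contributing nearly everything stood out. Lefty2, an inhibitor of Nodal signalling on chromosome 1, had 14.9 FPKM in +/+ and 120 in MD1/MD1. Its maternal FPKM was 14.9 and 12.7, and its paternal FPKM was 107 in MD1/MD1, where 89.4% of 3463 reads were paternal. Htr7, a serotonin receptor on chromosome 19, had 32.7 FPKM in +/+, 99.9% paternal of 1215 reads, and 0.0185 in MD1/MD1. Both were higher in the library that carried the paternal strain allele, which in this pair cannot be told apart from the genotype. In the pair with XistdeltaA/+ Lefty2 had 84.1 FPKM in +/+ and 71.1 in MD1/MD1. Htr7 had 32.8 there in +/+ and was listed at 0 in MD1/MD1. Olfr293 was listed at 0 in +/+ and had 11.0 FPKM in MD1/MD1, with 100% of 300 reads paternal. Ly6g6c (4.79 and 0.493 FPKM) and Cyp2b23 (3.20 and 0.162) were lower in MD1/MD1, where their windows held maternal-type alleles alone. Lsm7, which belongs to a ring of RNA-binding proteins, had 2.69 and 53.8 FPKM and no allele-assigned reads. Oaz1-ps, Rpl27 and H2-Q8 above, and Rpl10a, Rpl28 and Rps28 below, are uncertain because of near-identical copies.

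Genes of chromatin silencing were described from lists. Of 19 genes of SMC complexes and cohesin 1 was lower by more than 2-fold, Smchd1 itself, and the median log2 ratio was 0.065. Their X-linked members Smc1a (0% of 1085 reads and 11.9% of 971) and Stag2 (0% of 184 and 6.08% of 263) were higher in paternal share. Of 13 genes of H3K9 methylation none passed 2-fold, with a median of 0.082, and X-linked Suv39h1 went from 0% of 307 to 15.2% of 322. Of 25 Polycomb genes measured none passed 2-fold, with a median of 0.051, and X-linked Rbbp7 went from 0% of 701 to 1.80% of 612. Of 11 genes of DNA methylation none passed 2-fold, with a median of 0.088. Dnmt3b had 242 and 268 FPKM, and Dnmt1 had 62.5 and 64.0. Past 2-fold were 0.431% of all genes above and 0.387% below, so few members of such lists would be counted by this rule.

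In the X inactivation centre 7 genes had enough reads and 3 were called higher, Chic1, Ftx and Rlim, the ubiquitin ligase that activates Xist (0.314% of 1594 and 7.40% of 1810). This count is also near the 38.2% of all X-linked genes. Jpx, a noncoding RNA, was at 12.1% of 33 reads and 26.7% of 45 and was not called. Nap1l2 (5.56% and 0%) was not called either. The Rhox cluster summed to 0.963 FPKM in +/+ and 0.395 in MD1/MD1 over 21 genes, and the Hox genes to 2.31 and 2.91 over 38 genes. No member of either list reached a mean of 1 FPKM.

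Clustered protocadherins were at the edge of detection, with 6 of 58 measured, a median log2 ratio of -0.26 and none past 2-fold. All 6 were of the gamma cluster and lay in a window with both alleles in MD1/MD1 only. The 58 genes summed to 25.5 FPKM in +/+ and 28.4 in MD1/MD1. Alpha cluster genes under a mean of 1 FPKM included Pcdha9 (0.0158 and 1.08 FPKM) and Pcdha8 (0.0338 and 0.744), named after their values were seen. Of 14 imprinted genes read from the paternal allele 1 was at least 2-fold above, against 0.431% of all genes, and 3 were below, against 0.387%. The gene above was Ndn (5.43 and 13.9 FPKM), in a window with both alleles in MD1/MD1 only. Those below were Plagl1, Igf2 and Peg10 (14.01 and 4.21 FPKM), the last in a window that was not classed. Peg10 stayed paternal at 97.3% of 816 reads and 97.0% of 233. Of 20 imprinted genes read from the maternal allele none passed 2-fold. H19 had 30.6 and 22.6 FPKM without a paternal read in either library, Cdkn1c had 27.6 and 13.6 FPKM, and Meg3 was 2.51% paternal of 2708 reads and 4.74% of 1877, called higher.

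The difference between genotypes was last set against that of the pair with XistdeltaA/+, over 341 X-linked genes with at least 20 reads in all 4 libraries. Log odds ratios of the pairs were compared by a normal test with Benjamini-Hochberg adjustment, and 7 genes passed (2.05%). The rise was larger with Xist1lox/+ for Utp14a (14.8 points against 12.4) and smaller for Tmem47 (14.5 against 28.5), Snx12 (8.07 against 14.4), Yipf6 (16.8 against 22.2), Kif4 (10.3 against 13.6), Hmgn5 (7.69 against 8.59) and Wbp5 (-1.01 against 2.11). The adjusted p of this normal test was 9.34e-36 for Tmem47 and 0.0388 for Hmgn5. The rises of Hmgn5 were close in points, and its +/+ shares were 34.1% with Xist1lox/+ and 0% with XistdeltaA/+. On the log odds scale the start of a rise counts as well as its size in points. Ogt differed by 32.4 points in both pairs. A difference that did not pass the test is not shown to be equal. The falls of Lpar4 (7.81% to 0%) and Clcn5 (7.19% to 1.03%) stood beside 6.42% and 7.46%, and 0.5% and 2.89%, in the other pair. Of the genes called lower here, Sept6 (0.147% and 0.194%) and Col4a6 (0% in both libraries) did not fall there either. The rest had lower values in that MD1/MD1 library as well, such as Pak3 (7.75% to 0%), Tmem164 (3.19% to 0.270%) and Fundc1 (23.1% to 10.6%).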

How the data were processed

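Libraries were stranded and made from mRNA, per the labels' protocols. Gene by gene the authors deposited a count of allele-assigned reads, the fraction of them that is paternal, and FPKM, per the file headers. The submitters' processing notes name mm9, Cufflinks 2.2.1 and Cuffdiff. Not given in the sources used here were the aligner, variant list, gene annotation and any scaling of FPKM. Left out were 6 columns that hold values of no sample of the series. Fraction times count gave whole paternal reads for 100% of values, within 1e-06.

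Shares were compared with Fisher's exact test in scipy 1.17.1 at 20 or more reads, and expression as log2(FPKM + 1) at a mean of 1 FPKM or more by a fixed 2-fold rule, which understates ratios of low genes. A 10 Mb window carried both alleles where at least 80% of its genes with 20 reads, and 5 genes or more, were 10% to 90% paternal, and maternal-type alleles alone where at least 80% were under 5%. The share test was tested on simulated data.

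Named genes were Smchd1 and Xist, the 20 largest rises and 8 largest falls of called X-linked shares at 50 or more reads, 6 autosomal ones each way, the 10, 6 and 8 largest 2-fold changes each way of matched windows, unmatched windows and the X, and members of gene lists. These lists, the windows and the compared libraries were chosen with earlier results of these data known. Alternative read minimums, thresholds, weights, window sizes, pseudocounts, filters and scalings were tried. Some genes that the rule would name are not reported here.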

Additional observations from a re-analysis of the deposited data

Results flagged for a closer look

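Both results here were flagged because the difference between genotypes itself differed between the Xist backgrounds in a test on reads, with 1 library for each genotype. Yipf6, a Golgi protein, rose by 16.8 points with Xist1lox/+ and by 22.2 points with XistdeltaA/+ (adjusted p from a normal test on log odds ratios, over all X-linked genes compared, 0.00674). Its +/+ shares were 5.95% with Xist1lox/+ and 0.562% with XistdeltaA/+, and its MD1/MD1 shares were 22.7% and 22.8%. Utp14a, a factor of ribosomal RNA processing, rose by 14.8 points with Xist1lox/+ and by 12.4 with XistdeltaA/+ (adjusted p 0.00674 in the same test). Its +/+ shares were 1.19% and 4.96%, and its MD1/MD1 shares 16% and 17.3%. For both genes the MD1/MD1 libraries were closer to each other than the +/+ libraries were on the log odds scale.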

How the results depend on the processing

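No paired analysis was possible because each genotype had 1 library and the result comes from no test over samples. Over 17 results and 81 alternatives, 57 values stayed close to the reported one, 24 moved and none changed direction as a called value. The X-linked difference of 5.94 points was 4.24 with equal weight for each gene, 8.37 with Xist, Ftx and Jpx, and 6.24 with genes weighted by FPKM. The 68 genes that passed 10% anew were 119 at a threshold of 5% and 18 at 20%. A rule of at least 5 points in place of the test gave 937 autosomal genes of both-allele windows higher and 1019 lower. The X-linked median log2 ratio was 0 with no filter on low FPKM and 0.040 from allele-assigned reads scaled to the library total. From such reads the median was -0.012 in matched windows and -0.025 in windows with both alleles in MD1/MD1 only. Counts past 2-fold depended on the scale. A pseudocount of 0.1 gave 32 higher and 39 lower in matched windows, 51 and 41 in unmatched windows, and 2 lower on the X. Scaled reads gave 79 and 79, 93 and 87, and 5 lower on the X. No filter gave 2 lower on the X. Without ribosomal protein genes, pseudogenes and predicted genes, chosen after seeing the data, 9 were higher in matched windows and 2 on the X. Shares under the limit that a count of 0 allows were not detectable at this depth.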

Other observations

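RNA of macrophage and fibroblast type carried mostly maternal-type alleles in both libraries, also where the pluripotent cells carried both. Lyz2, the lysozyme of macrophages, lay in a window with both alleles in MD1/MD1 only, and had 0.0515% paternal of 5825 reads in +/+ and 0% of 4971 in MD1/MD1. In windows with both alleles in both libraries Ctss was at 4.81% of 478 and 5.73% of 349, and Laptm5 at 0% of 176 and 1.15% of 174. Over the 4 macrophage genes of such windows with enough reads the share was 14.3% in +/+ and 13.2% in MD1/MD1, and over 5 fibroblast genes 25.2% and 24.3%. The primed pluripotency genes of such windows and the X were at 50.1% and 51.4%. Col3a1 was at 12.8% of 430 and 13.8% of 506, while Pdgfrb was at 53.2% of 154 and 54.3% of 92. The part of this RNA in the X-linked shares was not tested.

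Targets of p53 were above their +/+ level for 12 of 15 genes measured, with a median log2 ratio of 0.21. Of all genes 50.7% were above 0, with a median of 0.0036, and of X-linked genes 64.6%. The list includes X-linked Eda2r and genes of unmatched windows, such as Cdkn1a. Cdkn1a, an inhibitor of the cell cycle, had 37.9 and 54.2 FPKM, Ccng1, a cyclin, 33.7 and 49.7, and Pmaip1, which promotes cell death, 46.3 and 64.9. Pmaip1 was also 2.56% paternal of 3315 reads and 18.7% of 4234, in a window with both alleles in both libraries. Eda2r, also in this list, was the only member past 2-fold, with a log2 ratio of 1.005 at the edge of the rule. In the pair with XistdeltaA/+ Eda2r had 10.1 FPKM in +/+ and 6.97 in MD1/MD1. Of 17 genes of the hypoxia response none passed 2-fold, with a median of -0.026, and Aldoa had 1988 and 2023 FPKM. Sox1 was the only one of 5 neural genes past 2-fold (1.77 and 0.292 FPKM), and Krt7 the only one of 5 trophoblast genes. None of 4 naive, 4 mesendoderm, 1 primitive endoderm and 1 germline gene measured passed it, with medians of -0.16, 0.092, 0.099 and -0.23.

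Allele-assigned reads and FPKM went apart for a few genes. Rbm3 had 2089 reads in +/+ and 366 in MD1/MD1 beside 61.3 and 54.6 FPKM. Prdx1 had 865 and 5068 reads beside 1085 and 1015 FPKM. Gm12504 had 70 and 0 reads beside 1.19 and 33.8 FPKM.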
